A study of Mus musculus with 9 samples.

Results

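The liver of untreated STAM mice was compared with the liver of normal mice on 6 of the 9 arrays of the series, 3 arrays of each kind, chosen by their sample labels alone. The study followed how diabetes and fatty liver disease lead to liver cancer in mice, and its remaining group, STAM mice given insulin (STAM-INS), enters here only through the estimate of the spread. All mice were male and 20 weeks old. STAM-NON mice were C57B/6J mice given a low dose of streptozotocin, a toxin of the insulin-secreting beta cells, soon after birth and a high-fat diet from weaning, without insulin. Normal mice received neither streptozotocin nor the high-fat diet and ate the ordinary chow CE-2. Toxin and diet therefore differ together between the groups, and whether the pieces of STAM-NON liver held tumour tissue is not stated in the sources used here. Total RNA of 1 mouse was labelled with Cy3 and hybridised to 1 array, so that replicates are separate mice.

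The liver takes up nutrients and drugs from the blood and makes most plasma proteins, bile acids and urea. Hepatocytes, its main cells, oxidise foreign compounds with cytochrome P450 enzymes and conjugate the products for excretion, and in male mice the pulsed release of growth hormone keeps a set of these genes high. In steatohepatitis, hepatocytes loaded with fat are injured, macrophages and lymphocytes enter the tissue, and stellate cells lay down collagen.

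Values are given as log2 of the processed signal of a probe minus the 75th percentile of its array, called the centred log2 signal, and differences are STAM-NON minus Normal on that log2 scale. At 0 a probe is as bright as the 75th percentile of its array, and probes of different genes are not ranked by their brightness. A gene passed when the Benjamini-Hochberg adjusted p of limma over 26277 tested probes was under 0.05, and each gene is represented by its brightest tested probe. In this comparison 4220 probes passed, or 16.1% of those tested, with 6.30% higher and 9.76% lower. Over 13386 named genes the background was 7.87% higher and 8.93% lower, with a median difference of -0.11. All STAM-NON arrays lay on 1 slide and all Normal arrays on another, so slide and group coincide and cannot be told apart in any difference given here. The row on the slide coincided with group in the same way, with STAM-NON in row 1 and Normal in row 2. The share of spots well above background was 59.31%, 47.8% and 63.12% on STAM-NON replicates 1, 2 and 3, and between 46.22% and 51.06% on the Normal arrays.

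The tissue was checked against 16 genes that define liver, such as albumin (Alb), transthyretin (Ttr) and apolipoproteins. All 16 were tested, and only Cps1, the first enzyme of the urea cycle, passed, being lower in STAM-NON. Alb read 10.15, 10.45 and 10.22 on STAM-NON replicates 1, 2 and 3 and 10.55, 10.61 and 10.67 on the Normal arrays, a difference of -0.34 (SE 0.12, limma adjusted p = 0.0825). All arrays were therefore high in Alb, with the STAM-NON arrays just below the Normal ones. Of markers of neighbouring tissues, the pancreatic digestive enzyme genes Prss1, Prss2, Cpa1 and Pnlip and the fat cell genes Adipoq, Lep and Plin1 were not well above background throughout any group and were not tested. Of 4 pancreas markers that were tested, Cela1 was higher (2.63) and Ctrb1 lower (-0.78), and of 5 fat cell markers Fabp4, which macrophages also express, was higher (2.85). The part of such tissue in the differences was not tested.

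**Figure D1:**
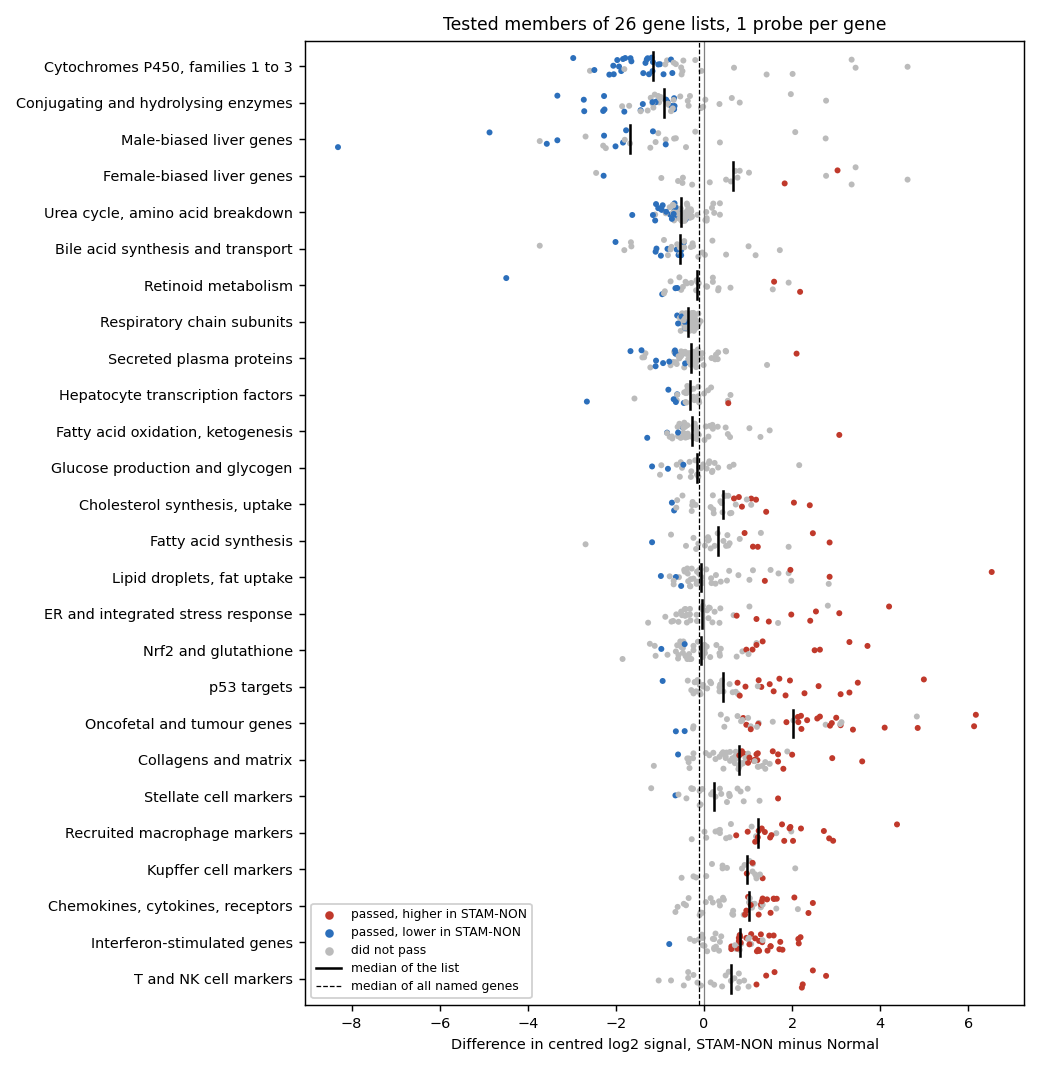
Differences of single genes in 26 lists. The horizontal axis is the difference in centred log2 signal, STAM-NON minus Normal, each point is 1 tested gene of the list named on the left, red and blue points passed, grey points did not, thick ticks are list medians and the dashed line is the median of all named genes (-0.11). The medians of the P450 list (-1.16) and of the male-biased list (-1.68) lie farthest to the left, and those of the oncofetal list (2.03) and the recruited macrophage list (1.22) farthest to the right.

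Drug-oxidising P450 genes were broadly lower in STAM-NON liver. Of 43 tested members of families 1 to 3, 25 were lower and 0 higher (58.1% lower against 8.93% of all genes), and the median difference was -1.16. On 30 of them the 3 STAM-NON arrays all lay below the 3 Normal arrays, which was so for 26.0% of all genes. On 3 of them they all lay above, which was so for 14.9% of all genes. The Cyp2c enzymes, which oxidise many drugs and arachidonic acid, stood out by their uniformity, since 10 of 11 passed and all 11 differences lay between -2.15 and -1.0. Of 8 Cyp2d genes 6 were lower, and of 6 Cyp3a genes 4 were lower. The Cyp3a genes were not uniform, with differences from -2.49 to 3.44, and the 1 Cyp1b gene was at 1.42 with no call. Many genes of these families are near-identical copies of each other, so a probe can carry signal of a neighbouring gene and the separate genes are uncertain. The Cyp2c, Cyp2d and Cyp2b differences kept their sign under all 5 other scalings of the arrays.

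Cyp1a2, which oxidises caffeine and aromatic amines in the pericentral zone, read 0.60, 2.26 and 0.26 in STAM-NON and 3.91, 4.19 and 3.93 in Normal. All 3 STAM-NON arrays were low, with replicate 2 the least so, and the groups did not overlap. The difference was -2.97 (SE 0.46, limma adjusted p = 0.0108). Cyp3a11, the main drug-oxidising enzyme of the Cyp3a family, read 7.54, 7.72 and 6.74 against 9.50, 9.25 and 9.43. Again every STAM-NON array was below every Normal array, and both of its probes passed, with differences of -2.06 and -2.43. Cyp2c54 passed at all 3 of its probes, with differences from -2.25 to -1.79, and Cyp2c39 had the smallest adjusted p of the list (difference -1.93, SE 0.23, limma adjusted p = 0.00486). Cyp2e1, the ethanol-oxidising enzyme, was at -0.88 and did not pass at its brighter probe (limma adjusted p = 0.084).

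The Cyp2b genes, classical targets of the drug-sensing receptor CAR and in part female-biased, ran the other way, with none of 3 past the threshold. Cyp2b13 read 3.60, 0.29 and -2.14 in STAM-NON and -5.91, -2.73 and -3.46 in Normal, a difference of 4.62 (SE 1.35, limma adjusted p = 0.051). Cyp2b10 read 7.09, 4.34 and 2.46 against 1.67, 3.53 and 2.67, a difference of 2.01 (limma adjusted p = 0.2). STAM-NON replicate 1 was the highest of the 6 arrays for both genes, and for Cyp2b10 replicate 3 lay within the Normal range.

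The count of lower P450 genes was 17, 26 and 19 without STAM-NON replicates 1, 2 and 3 and 13, 12 and 8 without Normal replicates 1, 2 and 3. With arrays centred on E1A spike-in controls, RNAs added to each sample, 18 P450 genes were lower where the background fell to 1.58% of genes. A direct repeat of the kind bound by HNF4 and other nuclear receptors was searched on both strands. Its letters were AGGNCA, 1 base of any kind and AGGNCA again. It was found in the promoters of 3 of 36 P450 genes that have one in the RefSeq table, against 0.451% of 27025 genes. Among these it was in 1 of the 20 lower genes, Cyp2d9, and in 2 of the 16 that did not pass. The repeat was thus not more frequent in the lower genes than in those that did not pass. The promoters searched ran from 250 bases before to 50 bases after the start site in the assembly GRCm38.p6, and a match is a description of letters only.

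Conjugating and hydrolysing enzymes were lower as well, with 18 of 49 lower and 0 higher (36.7% against 8.93% of all genes) and a median of -0.90. Carboxylesterases, which cleave ester drugs and lipids, had 6 of 11 lower, and all 11 differences were below 0. Ces2a read 4.75, 5.89 and 5.07 in STAM-NON and 8.03, 7.83 and 8.01 in Normal. Its STAM-NON arrays lay well below the Normal arrays, with a difference of -2.72 (SE 0.32, limma adjusted p = 0.00486). Ces2c passed at all 3 probes, by -2.26 to -2.63. Of 12 glucuronosyltransferases 4 were lower, led by Ugt2b1 at -2.27, and of 7 sulfotransferases 3 were lower, led by Sult5a1 at -2.73. Aox3, an aldehyde oxidase, had a difference of -1.81 (limma adjusted p = 0.00765). None of 5 flavin monooxygenases passed. With 1 array left out the list's count lower was 8, 31 and 9 for STAM-NON replicates 1, 2 and 3 and 7, 5 and 5 for the Normal ones, and with E1A centring it was 8.

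**Figure D2:**
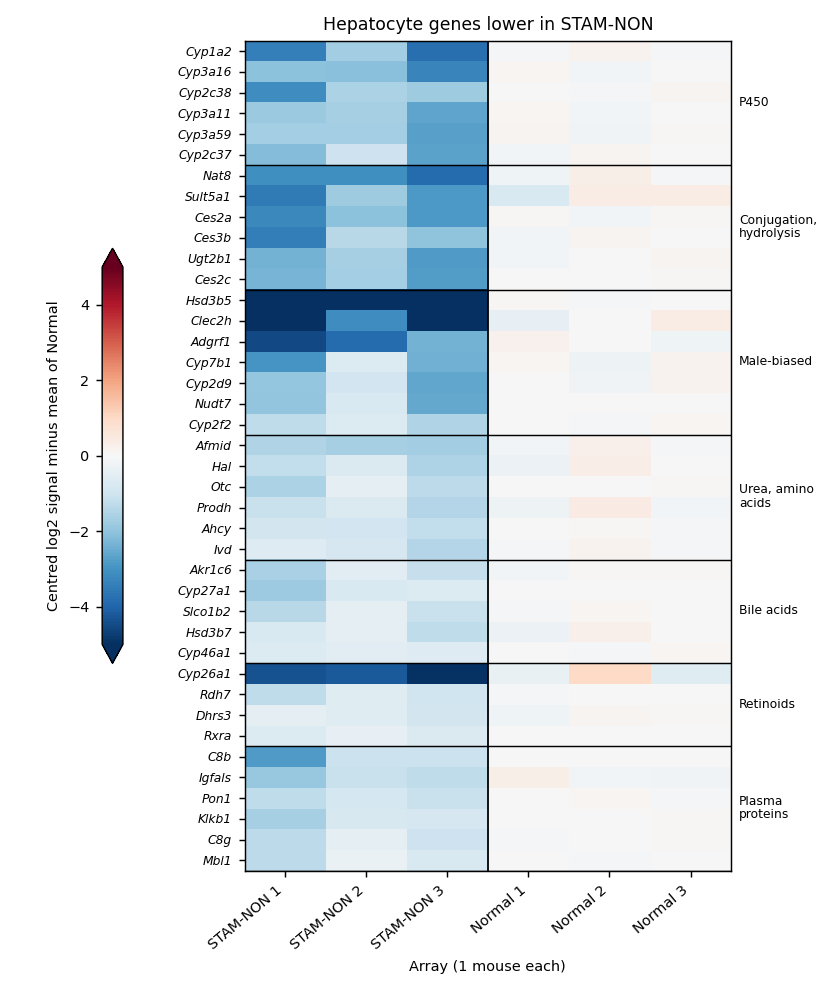
Hepatocyte genes that passed as lower in STAM-NON, led by the largest differences of 7 lists, each gene shown once. Columns are the 6 arrays, rows are genes grouped by the list named on the right, and colour is centred log2 signal minus the mean of the Normal arrays, from -5 (blue) to 5 (red). STAM-NON replicate 2 is the palest of the 3 STAM-NON columns for Cyp1a2 (2.26 against 0.60 and 0.26), Cyp2c37 and most male-biased genes.

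Male-biased liver genes depend on pulsed growth hormone and its factor STAT5. Of 27 tested, 10 were lower (37% against 8.93% of all genes) and 0 higher, with a median of -1.68. The list shares Nat8, Cyp2d9, Cyp2f2 and Ugt2b1 with those above. Hsd3b5, a steroid ketoreductase that only males express highly, read -6.80, 0.43 and -0.05 in STAM-NON, well above background on 2 of the 3 arrays, and 6.24, 6.07 and 6.20 in Normal. The Normal arrays were tight and every STAM-NON array was far below them (limma adjusted p = 0.0289). Cyp7b1, an oxysterol hydroxylase, differed by -2.01, Nudt7, a peroxisomal CoA hydrolase, by -1.77 at one probe and -1.88 at the other. Slco1a1, an organic anion carrier, read -4.20, 1.36 and 2.14 against 3.42, 3.48 and 3.60. Its STAM-NON arrays were all lower but so scattered that it did not pass (limma adjusted p = 0.102). Elovl3 (-2.69) and Cyp4a12a (-2.29) did not pass either. The major urinary protein gene Mup20 was at -0.41 with no call (limma adjusted p = 0.1).

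Female-biased genes had 2 of 20 higher (10% against 7.87% of all genes) and 1 lower (5% against 8.93%). Their median of 0.66 was -0.07 over the 14 well above background on all arrays and 0.07 with slide row as a block. Their count higher was 1 to 5 with 1 array left out, the most without STAM-NON replicate 2. Nipal1, a magnesium transporter gene, read 0.40, -0.75 and 1.43 against -2.74, -2.46 and -2.82, a difference of 3.03 (limma adjusted p = 0.0125), and Abcd2, a peroxisomal fatty acid transporter, rose by 1.83. Cyp3a41b went the other way at -2.28. Within the hormone axis itself 4 of 18 genes were lower and 2 higher (22.2% and 11.1% against 8.93% and 7.87% of all genes). The growth hormone receptor Ghr read 4.49, 5.20 and 4.20 against 5.80, 5.93 and 6.05 and was lower at both probes (-1.30 and -0.96, limma adjusted p = 0.0163 for the brighter). Igfals, which holds IGF-1 in the circulation, differed by -1.42 and Igf1 itself by -0.64, with 3 of 4 Igf1 probes past the threshold. Socs3, a feedback inhibitor of cytokine receptors, was higher by 1.11, while Stat5b was at -0.37 with no call. The axis had 5 lower and 2 higher genes without STAM-NON replicate 2, and 1 to 3 lower and 0 or 1 higher without any other 1 array. The male-biased median was -1.0 without STAM-NON replicate 1. The count of lower male-biased genes was 5, 19 and 5 without STAM-NON replicates 1, 2 and 3 and 3, 3 and 2 without Normal replicates 1, 2 and 3.

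Genes of nitrogen and amino acid handling were lower by smaller amounts, with a median of -0.53. Of 63 genes 18 were lower (28.6% against 8.93% of all genes) and 0 higher. In the urea cycle Otc read 4.93, 6.07 and 5.21 against 6.5, 6.49 and 6.56, a difference of -1.11 with both probes past the threshold (limma adjusted p = 0.0316). Cps1 differed by -0.67 and Arg1, which releases urea, by -0.42, whereas Asl (-0.40) and Ass1 (-0.32) did not pass. In amino acid breakdown the differences were -1.63 for Afmid of the kynurenine pathway, -1.16 for the histidine ammonia-lyase Hal and -1.09 for the proline dehydrogenase Prodh. Ahcy, which clears S-adenosylhomocysteine, was lower at both probes (-1.04 and -1.06, limma adjusted p = 0.00932). The tyrosine aminotransferase Tat was at 0.18 with overlapping arrays. These calls leaned on the scaling, since 3 of the 63 were lower with E1A centring and 6 with quantile normalisation. They leaned on single arrays too, being 4, 27 and 6 without STAM-NON replicates 1, 2 and 3 and 9, 3 and 3 without Normal replicates 1, 2 and 3.

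Bile acid genes had 11 of 37 lower (29.7% against 8.93% of all genes), 0 higher and a median of -0.55. With E1A centring, however, 0 were lower and 1 higher. The steps of the classic pathway did not move as one. Cyp7a1, its rate-limiting enzyme, read 2.60, 2.60 and 3.23 in STAM-NON and 3.50, 3.17 and 1.68 in Normal. The groups overlapped, and the difference was 0.02 (SE 0.47, limma adjusted p = 0.975). Cyp8b1, which makes cholic acid, was at 1.17 (limma adjusted p = 0.0511). In the alternative pathway both Cyp27a1 (-1.08) and Cyp7b1 (-2.01) were lower. Of the uptake carriers, Slco1b2 differed by -0.98, and Slc10a1, the main bile salt importer, was at -0.04 with no call. The bile acid receptor gene Nr1h4 was lower by a small amount (-0.46, limma adjusted p = 0.0453). Without 1 array the number lower was 2, 14 and 2 for STAM-NON replicates 1, 2 and 3 and 1, 1 and 0 for the Normal ones.

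Retinoid genes had few calls, with 4 of 29 lower and 2 higher (13.8% and 6.9% against 8.93% and 7.87% of all genes). Their median was -0.17, against -0.11 over all genes. Cyp26a1, which degrades retinoic acid and is itself switched on by it, read -1.70, -1.54 and -2.30 against 2.27, 3.63 and 2.03. Every STAM-NON array was at least 3 units below every Normal array, and the difference was -4.49 (SE 0.52, limma adjusted p = 0.00486). Rdh7, a retinol dehydrogenase, differed by -0.95. Aldh1a2, a retinoic acid synthase, was well above background on no Normal array and at least 2.62-fold higher in STAM-NON (limma adjusted p = 0.048). Lrat, which esterifies retinol in stellate cells, was at 0.20 with overlapping arrays. Without STAM-NON replicate 2 there were 7 lower and 5 higher retinoid genes, and without any other 1 array 1 to 3 lower and 0 or 1 higher.

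Secreted plasma proteins changed less, with 11 of 72 lower (15.3% against 8.93% of all genes) and 1 higher. Their median of -0.30 was 0.01 with E1A centring. Lower members included C8b of the terminal complement (-1.67), paraoxonase Pon1 (-1.10) and prekallikrein Klkb1 (-1.09). The exception was Serpina7, the thyroxine-binding globulin, which is low in adult rodents. It read 3.17, 2.85 and 2.91 against 0.96, 0.64 and 1.04, with no overlap, and was higher by 2.10 (SE 0.15, limma adjusted p = 0.00127). The lower count was 6, 21 and 7 without STAM-NON replicates 1, 2 and 3 and 2 without any 1 of the Normal arrays. Of 33 hepatocyte transcription factors 6 were lower (18.2% against 8.93% of all genes) and 1 higher. Among the lower ones were Nr1i3, which encodes CAR (-0.81 at its brighter probe and -0.87 at the other), Zbtb20 (-0.64), Rxra (-0.61) and Nr1h4. Hnf4a (-0.22), Cebpa (-0.39) and Ppara (-0.23) did not pass and their arrays overlapped. Without STAM-NON replicate 2 the number of lower factors was 9, and without any other 1 array it was 1.

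Energy metabolism showed few calls. Fatty acid oxidation had 4 of 47 lower (8.51% against 8.93% of all genes) and 1 higher. Its gatekeeper Cpt1a was at 0.19 and not past the threshold. The 3 STAM-NON arrays differed here, with list medians of 0.14, -0.03 and -0.88 against the Normal mean. In glucose metabolism 3 of 28 genes were lower (10.7%, again against 8.93%). These were Mlxipl, the glucose-sensing factor ChREBP (-1.18, limma adjusted p = 0.00831), Ppp1r3b, which targets a phosphatase to glycogen (-0.82), and Ugp2 (-0.47). Pck1 (-0.11) and G6pc (0.19), the controlled steps of glucose output, did not pass. All 73 respiratory chain subunits were below 0, whereas 5241 of 13386 named genes were above 0. Only 6 subunits were called lower (8.22% against 8.93%), and 18 after normexp correction. Their median of -0.36 became -0.05 with E1A centring, where no subunit passed. Leaving out STAM-NON replicate 2 gave 22 lower subunits and 4 lower fatty acid oxidation genes, and leaving out any other 1 array gave 0 or 1 and 0.

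Among genes that were higher, targets of p53, the factor that halts damaged cells, had 16 of 44 higher and 1 lower (36.4% against 7.87% of all genes), with a median of 0.43. Cdkn1a, which encodes the cell cycle inhibitor p21, read 1.24, 1.55 and 1.99 in STAM-NON and -3.33, -3.33 and -3.54 in Normal. The gap between the groups was far wider than the scatter within them, and the difference was 4.99 (SE 0.35, limma adjusted p = 0.00127). Its other probe, well above background on no Normal array, was at least 2.23-fold higher. Phlda3, a p53-induced inhibitor of Akt, read 2.12, 2.80 and 1.95 against -0.96, -0.99 and -1.07, a difference of 3.30 (SE 0.27, limma adjusted p = 0.00186). Tnfrsf10b, a death receptor, was higher by 2.60 and was well above background on 1 Normal array, and Btg2 was higher by 2.28. Cdkn2a, a senescence-linked inhibitor locus counted with this list, was well above background on no Normal array and at least 8.77-fold higher in STAM-NON (limma adjusted p = 0.0014). Other textbook targets did not pass, with Mdm2 at 0.35, Bax at 0.65 and Ccng1 at 0.77. Leaving out STAM-NON replicates 1, 2 and 3 gave 12, 16 and 9 higher, and leaving out Normal replicates 1, 2 and 3 gave 7, 8 and 6. With slide row as a block, which only the STAM-INS arrays separate from group, all calls fell to 15 probes. Cdkn1a and Phlda3 were the p53 targets that still passed.

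Oncofetal and liver tumour genes are a list put together from genes known to rise in liver cancer. Of 41 tested, 21 were higher (51.2% against 7.87% of all genes) and 2 lower. Their median was 2.03, or 1.87 without the 2 members detected in 1 group only. It was 1.4 over the 36 well above background on all arrays and 1.21 after normexp. The fetal liver protein Afp read 1.92, 0.83 and 1.87 against -2.10, -0.87 and -1.72, with no overlap and a difference of 3.10 (SE 0.71, limma adjusted p = 0.0269). Gldn was at least 18.9-fold and Tubb2b at least 6.92-fold higher, both well above background on no Normal array, although the other Tubb2b probe was at 0.41. Of the calcium-binding S100 proteins in the list, S100a11 was higher by 2.90, S100a4 by 2.57 and S100a6 by 2.14. The glutathione peroxidase Gpx2 (2.63), the transcription factor Sox9 (0.96) and Cd44 (0.89) were also higher. Tff3, a mucosal peptide, was at 4.83 but did not pass, since it read -0.70, 2.60 and 7.31 on the 3 STAM-NON arrays. The count higher was 9, 26 and 11 without STAM-NON replicates 1, 2 and 3 and 9, 10 and 7 without Normal replicates 1, 2 and 3. Of biliary and progenitor genes 5 of 23 were higher and 2 lower (21.7% and 8.7% against 7.87% and 8.93% of all genes). Krt7 passed at 1.55 and Krt19 at 0.63 did not. The biliary count higher was 0, 6 and 2 without STAM-NON replicates 1, 2 and 3 and 1, 2 and 0 without Normal replicates 1, 2 and 3.

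Markers of recruited, lipid-laden macrophages were higher in 20 of 35 tested genes and lower in 0 (57.1% against 7.87% of all genes), with a median of 1.22. In these bulk samples, more cells of a type and more RNA per cell cannot be told apart. Trem2, a lipid receptor of scar-associated macrophages, read 1.12, -0.22 and 1.33 in STAM-NON and -2.73, -2.12 and -1.69 in Normal. Replicate 2 was the lowest STAM-NON array but still above the Normal ones, and the difference was 2.93 (SE 0.48, limma adjusted p = 0.0122). Gpnmb, a lysosomal glycoprotein of the same cells, was at least 4.32-fold higher and well above background on no Normal array. The tetraspanin Cd63 was higher by 2.84, the chemokine receptor Cx3cr1 by 2.72 at one probe and 2.38 at the other, and the lipoprotein lipase Lpl by 1.96 and 2.07. Of 21 resident Kupffer cell markers 3 were higher (14.3% against 7.87% of all genes) and 18 were above 0, with a median of 0.97. The higher ones were Cd5l (1.33), C1qc (1.1) and Clec4f (0.97), while Timd4, which marks embryonically seeded Kupffer cells, was at 0.52 with no call. The Kupffer count was 11 without STAM-NON replicate 2 and 0 without any other 1 array. The macrophage count was 8, 26 and 11 without STAM-NON replicates 1, 2 and 3 and 5, 5 and 6 without Normal replicates 1, 2 and 3.

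Chemokines, cytokines and their receptors had 16 of 44 higher (36.4% against 7.87% of all genes) and 0 lower. Their median of 1.01 was 0.52 after normexp. Ccl5, made by T cells and macrophages, read 2.31, 2.62 and 3.52 against 0.04, 0.31 and 0.69. All STAM-NON arrays were above all Normal arrays, by a mean of 2.47 (SE 0.39, limma adjusted p = 0.011). Ccl2, which draws in monocytes, was higher by 1.65, Ccl4 by 2.05 and the adhesion molecule Vcam1 by 1.43. Il1b was at 0.20 with overlapping arrays and no call. The count fell to 5, 5, 7, 2 and 2 without STAM-NON replicate 1, STAM-NON replicate 3 and Normal replicates 1, 2 and 3, and was 24 without STAM-NON replicate 2. T and NK cell markers had 7 of 27 higher (25.9% against 7.87%) and 0 lower, with a median of 0.61 that was 0.23 after normexp. The granzymes Gzma (2.22, limma adjusted p = 0.0106) and Gzmb (at least 3.3-fold, well above background on no Normal array) were higher, and so were Ctla4 (at least 1.73-fold) and Icos (1.41). The shared T cell chain Cd3e was at -0.24 with no call. That count was 4, 8 and 4 without STAM-NON replicates 1, 2 and 3 and 3, 3 and 4 without Normal replicates 1, 2 and 3.

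Interferon-stimulated genes, which cells switch on against viruses and in inflamed tissue, were higher in 29 of 58 and lower in 1 (50% against 7.87% of all genes), with a median of 0.81. On 35 of them the groups did not overlap upwards, which was so for 14.9% of all genes. Across the STAM-NON mice this list was more even than the macrophage list. Its list medians against the Normal mean were 0.88, 0.82 and 0.71 on STAM-NON replicates 1, 2 and 3. Those of macrophage markers were 1.53, 0.60 and 1.49. Across the Normal mice it was the less even list, at -0.29, 0.22 and 0.03 against 0.01, -0.02 and 0.08. This difference in pattern was not tested. Oas1a, an antiviral oligoadenylate synthetase, read 3.68, 3.51 and 4.10 in STAM-NON and 1.42, 1.52 and 1.80 in Normal. The groups were clear of each other, and both probes passed (2.19 and 2.16, SE 0.23 and limma adjusted p = 0.00402 for the brighter). Isg15, a ubiquitin-like modifier, read 4.87, 4.79 and 4.58 against 3.08, 4.03 and 3.37, with Normal replicate 2 the highest Normal array, and differed by 1.25 (limma adjusted p = 0.0253). Ifi44 (2.14), Oas2 (1.78), Usp18 (1.71) and Rsad2 (1.51) were higher, and Oas3 was at least 1.48-fold higher with 2 of 3 STAM-NON arrays and no Normal array well above background. Among the regulators, Irf7 (1.20), Irf8 (0.96) and Stat2 (0.62) were higher. Iigp1, a GTPase, was the lower gene, by -0.79 and -0.57 at its probes. The count higher was 13, 29 and 16 without STAM-NON replicates 1, 2 and 3 and 8, 15 and 10 without Normal replicates 1, 2 and 3.

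The promoters of interferon-stimulated genes carry a response element bound by complexes of STAT and IRF factors, and its core was searched on both strands as GAAA, 2 bases of any kind and GAAA again. Overlapping matches in a promoter count once. It was found in 23 of the 40 tested list members with a promoter in the RefSeq table, or 57.5%, against 3.99% of all 27025 genes. The share was 47.4% (9 of 19) in members called higher and 66.7% (14 of 21) in members that did not pass. The 80 bases holding the match are shown for 4 genes named above, because they are the letters that this family shares. Coordinates are those of GRCm38.p6, sequences read 5′ to 3′ on the strand of the gene, and capitals mark the matches (for Rsad2 the reverse complement).
Isg15, chr4:156200852-156200931, minus strand: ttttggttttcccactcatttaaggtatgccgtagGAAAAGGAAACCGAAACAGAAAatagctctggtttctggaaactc
Oas1a, chr5:120907526-120907605, minus strand: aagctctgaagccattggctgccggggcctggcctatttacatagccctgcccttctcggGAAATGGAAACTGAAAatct
Oas3, chr5:120777690-120777769, minus strand: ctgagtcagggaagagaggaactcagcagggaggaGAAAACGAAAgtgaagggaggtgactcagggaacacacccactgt
Rsad2, chr12:26456528-26456607, minus strand: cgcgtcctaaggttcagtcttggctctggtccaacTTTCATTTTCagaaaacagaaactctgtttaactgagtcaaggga
In Isg15 the matches run together into 1 block, and the first match has its centre 73 bases before the start site.

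Collagen and matrix genes had 17 of 59 higher and 1 lower (28.8% against 7.87% of all genes), with a median of 0.80 that was 0.52 after normexp. Timp1, an inhibitor of matrix proteases, read -0.26, -1.03 and -1.60 against -3.70, -4.62 and -5.37. It was well above background on no Normal array and at least 7.65-fold higher in STAM-NON (limma adjusted p = 0.0163). Thbs1 and Thbs2, which encode thrombospondins, were at least 2.93-fold and at least 3.01-fold higher. Loxl2, which cross-links collagen, was higher by 2.0, and Col6a3 by 1.19, Col4a2 by 1.15 and Tgfb1 by 1.03. The fibrillar collagens did not pass, with Col1a1 at 2.65, 1.17 and 1.57 against -0.04, 0.65 and -0.89, a difference of 1.89 (SE 0.64, limma adjusted p = 0.0767). Col1a1 was above the Normal range on all 3 STAM-NON arrays, but its scatter was wide in both groups. Stellate cell markers had 1 of 26 higher (Fbln2, 1.68) and 1 lower (Tpm1), or 3.85% each way, below the shares of all genes. Acta2, the smooth muscle actin of myofibroblasts, was at -0.10 with overlapping arrays (limma adjusted p = 0.912). Tpm1 was at -0.65 at its brightest probe but up to 0.99 at others, so its direction depends on the probe. Stellate markers higher numbered 9 without STAM-NON replicate 2 and 0 without any other 1 array. The matrix count depended on single mice, at 1, 35 and 5 higher without STAM-NON replicates 1, 2 and 3 and 3, 2 and 2 without Normal replicates 1, 2 and 3. Of 32 endothelial markers 3 were higher, among them Lyve1 of the sinusoids and lymphatics (3.01), and Bmp2 was lower (-1.0). Those shares were 9.38% and 3.12%, against 7.87% and 8.93% of all genes. Endothelial markers higher numbered 5, with 3 lower, without STAM-NON replicate 2 and 0 or 1 without any other 1 array.

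Genes of cholesterol synthesis had 8 of 32 higher (25% against 7.87% of all genes) and 2 lower (6.25% against 8.93%), with a median of 0.44. Sqle, the squalene epoxidase, read 3.50, 3.10 and 5.13 against 2.16, 1.60 and 0.75, a difference of 2.40 (SE 0.57, limma adjusted p = 0.0292). STAM-NON replicate 3 was the highest and the groups did not overlap. Mvd (2.04), Fdps (1.41) and Hmgcs1 (1.07), all of the mevalonate pathway, were higher as well. Tm7sf2 (-0.68) and Acat2 (-0.73) were lower. The count higher was 2, 9 and 2 without STAM-NON replicates 1, 2 and 3 and 2, 1 and 1 without Normal replicates 1, 2 and 3. A sterol regulatory element, TCACNCCAC on either strand, was found in the promoter of 1 of 20 members with one in the table, Hmgcs1, against 1.44% of all genes.

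Lipid droplet and uptake genes were near the background as a list, and single genes went both ways. Of 45 such genes 4 were higher and 3 lower, with a median of -0.06. Those shares were 8.89% and 6.67%, against 7.87% and 8.93% of all genes. The higher ones were Cidea, which fuses lipid droplets and is absent from healthy liver (6.53, limma adjusted p = 0.011, well above background on 1 Normal array), the fatty acid carrier Fabp4 (2.85), Lpl and the fatty acid translocase Cd36 (1.38). Cidea read 5.86, 1.71 and 1.80 in STAM-NON, so its size rested in part on replicate 1. The lower ones were the hepatic lipase Lipc (-0.98), the triglyceride synthase Dgat2 (-0.64) and Slc27a5 (-0.52). Cidec, at 5.72, 3.44 and 1.67 against 0.62, 0.78 and 0.93, was above all Normal arrays but did not pass (limma adjusted p = 0.0558), and the droplet coat gene Plin2 was at 0.26. Fatty acid synthesis had 5 of 27 higher (18.5% against 7.87%), led by Elovl7 (2.85), Scd2 (2.47) and Elovl5 (1.22). In that list 1 gene was lower, Mlxipl, described above. Fasn was at 1.29 and Scd1 at -0.75, with no call for either. Over the arrays left out 1 at a time, 2 to 7 lipid droplet genes and 1 to 6 synthesis genes were higher, the most without STAM-NON replicate 2.

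Of 42 genes of endoplasmic reticulum stress and the integrated stress response 8 were higher (19% against 7.87% of all genes) and 0 lower. Their median was -0.04. Asns, which makes asparagine, read 1.58, 1.74 and 2.15 in STAM-NON and -0.81, -0.63 and -0.70 in Normal, with tight arrays and no overlap (difference 2.54, SE 0.35, limma adjusted p = 0.00818). Psat1, of serine synthesis, was at least 14-fold higher and well above background on no Normal array (limma adjusted p = 0.00402), and Mthfd2 was at least 2.56-fold higher. The stress hormone Fgf21 read 2.36, 1.39 and 1.08 against -0.91, -2.14 and -1.32, a difference of 3.07 (limma adjusted p = 0.0125), and Atf3 (1.98), Ddit3 (1.47), Atf5 (1.19) and the kinase gene Eif2ak3 (0.74) were higher. The chaperone Hspa5 (0.11), the factor Xbp1 (-0.88) and the Atf4 transcript (-0.03) did not pass. The count higher was 6, 9 and 5 without STAM-NON replicates 1, 2 and 3 and 5, 4 and 4 without Normal replicates 1, 2 and 3. Without STAM-NON replicate 2 there were also 8 lower, so that the list was then not one-sided.

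The amino acid response element through which ATF4 and CHOP act was searched as TGATGNAA on both strands. It was found in 8 of 38 list members with a promoter in the table, against 4.51% of all genes, and in 3 of the 8 members called higher. Those 3 are shown, with the match in capitals (for Atf3 and Fgf21 the reverse complement), 5′ to 3′ on the strand of the gene in GRCm38.p6.
Asns, chr6:7693210-7693289, minus strand: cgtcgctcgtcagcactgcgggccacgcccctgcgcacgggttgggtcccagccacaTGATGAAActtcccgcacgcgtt
Atf3, chr1:191183400-191183479, minus strand: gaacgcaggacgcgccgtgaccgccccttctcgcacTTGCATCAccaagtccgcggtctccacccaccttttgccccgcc
Fgf21, chr7:45615586-45615665, minus strand: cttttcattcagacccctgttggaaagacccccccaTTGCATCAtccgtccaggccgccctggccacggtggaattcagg

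Antioxidant genes under Nrf2 and of glutathione had 8 of 49 higher and 2 lower, with a median of -0.07. Those shares were 16.3% and 4.08%, against 7.87% and 8.93% of all genes. Cbr3, a carbonyl reductase, read 4.73, 3.80 and 2.99 against 0.74, -0.35 and 0.01, a difference of 3.71 (SE 0.53, limma adjusted p = 0.00881). Gpx3 (3.30), Gpx2 (2.63), Mgst2 (2.51) and both enzymes of the oxidative pentose phosphate pathway in the list, G6pdx (1.33) and Pgd (1.1), were higher. The defining Nrf2 targets did not pass, with Nqo1 at 0.87 and Gclc at -0.61, and the glutathione transferase Gstm6 was lower at all 3 probes (-0.97 to -1.18). Leaving out STAM-NON replicates 1, 2 and 3 gave 3, 8 and 4 higher and 3, 12 and 1 lower, and leaving out Normal replicates 1, 2 and 3 gave 4, 3 and 3 higher and 1 lower each. The lower ones thus outnumbered the higher ones without STAM-NON replicate 2, and 7 were lower after normexp and with a trended, robust eBayes.

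The 3 STAM-NON mice were not alike. Taken as the list median against the Normal mean, replicates 1, 2 and 3 gave -1.30, -0.70 and -1.34 for P450 genes, -1.98, -0.57 and -1.59 for male-biased genes, 1.26, 0.24 and 1.08 for matrix genes and 1.94, 0.97 and 2.18 for oncofetal genes. Replicate 2 was thus the nearest to Normal in each of these lists. It was not so for p53 targets, at 0.56, 0.68 and 0.35, nor for interferon genes. Replicate 2 also had the smallest share of spots well above background of its group, and whether that has a part in its smaller differences was not tested. Replicate 3 stood out by neutrophil and red cell transcripts. S100a8, a neutrophil protein, read 1.08, -0.04 and 5.45 in STAM-NON and -0.82 to -1.04 in Normal (limma adjusted p = 0.108), and Hba-a1, of haemoglobin, read 5.63, 7.50 and 8.41 against 6.05, 6.10 and 6.11 (limma adjusted p = 0.372). None of the 6 red cell markers passed. Of the 13 neutrophil markers 3 were higher and 0 lower (23.1% higher against 7.87% of all genes). The neutrophil list median against the Normal mean was 1.80, 0.77 and 2.62 on STAM-NON replicates 1, 2 and 3, so it was not raised in replicate 3 alone. The part of such cells in the other differences was not tested.

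Genes measured by several probes gave a check within the array, since their probes lie at different sites of the transcript. Of 3337 genes with 2 or more tested probes, 104 had every probe higher and 102 every probe lower, or 3.12% and 3.06%. The groups did not overlap at any of these probes, which follows in large part from choosing them by the threshold. Over all named genes, at 1 probe each, the groups did not overlap in 14.9% upwards and 26.0% downwards. Of 764 genes with 2 or more tested probes and any probe past the threshold, 10 had probes past it in opposite directions. A gene needs at least 2 probes past the threshold to show this, and such genes were not counted. Only the 104 and 102 genes above had every probe past it in 1 direction, so 10 of 764 is not a rate of disagreement. Probes on 1 array share the sample and its slide, so they are not replicates of the groups. Of the genes with every probe past the threshold, 44 higher and 13 lower ones also passed at every probe under all 5 other scalings.

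The 12 higher genes named here were taken by the fitted difference of their less changed probe, which gives no rank where Normal was not above background, so they are not placed in order. Gprc5b is an orphan receptor of the retinoic acid-inducible family. Its less changed probe read 0.44, -0.51 and -0.01 in STAM-NON and -3.91, -3.87 and -5.32 in Normal, where no array was well above background, so that it was at least 14.5-fold higher, and its other probe was at least 16.6-fold higher. Espn, an actin-bundling protein, was at least 4.15-fold and 4.66-fold higher at its probes and the DNA repair factor Fignl1 at least 4.62-fold and 5.5-fold, with no Normal array well above background for either. Cdkn1a, described above, was among the 12. The lactate exporter Slc16a3 (2.61 and 2.75), Cx3cr1 and the imprinted gene Mest (2.26 and 2.79) were measured in both groups. For the phosphodiesterase Pde10a (at least 2.71-fold), the ketone body and niacin receptor Hcar2 (at least 1.34-fold) and the myeloid receptor Sirpb1b (at least 3.91-fold) 1 probe was well above background on no Normal array, and the others differed by 2.72, 2.59 and 2.41. The calcium carrier S100g (at least 4.11-fold and 3.25-fold) and the sodium pump subunit Atp1a4 (at least 1.72-fold and 1.47-fold) were not well above background in Normal at either probe.

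On the lower side the predicted gene Gm10804 differed by -4.47 and -6.12 and Dct, a melanin enzyme, by -3.37 and -3.42, each past the threshold under all 5 other scalings. The rest of the 12 were Ces2c, Cyp3a11, Cyp2c37, the uridine phosphorylase Upp2 (-1.85 and -1.94), Cyp2c54, Nudt7, the steroid dehydrogenase Hsd3b2 (-1.74 and -1.77), Pgm5 (-1.54 and -2.11), Cyp3a59 and the anion transporter Slc22a28 (-1.44 and -2.16). P450 enzymes thus made up 4 of these 12.

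**Figure D3:**
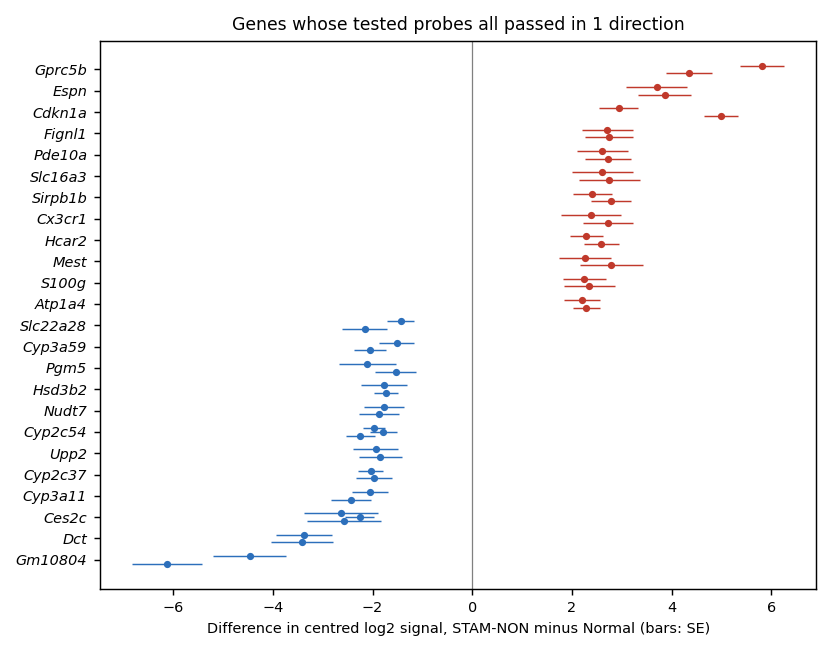
Genes whose tested probes all passed in 1 direction, 12 higher and 12 lower. The horizontal axis is the difference in centred log2 signal, STAM-NON minus Normal, each point is the fitted value of 1 probe, also for probes at background in Normal, and bars are its SE from limma. The probes of most genes lie close together, as for Dct at -3.37 and -3.42, and those of Gprc5b (4.34 and 5.81) and Gm10804 (-4.47 and -6.12) are farther apart.

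How far each list was lower or higher depended on the scaling of the arrays, because the median over all probes moved from -0.29 with median centring to 0.18 with E1A centring. The lower lists of P450 and conjugating enzymes stayed lower under each scaling run, with 18 to 26 and 8 to 27 genes called, while the small differences in amino acid and bile acid genes lost most of their calls with E1A centring, where 1.58% of all genes were lower and 11.9% higher. Over all named genes the shares higher and lower were 9.52% and 3.72% with the 75th percentile of detected probes, 5.12% and 6.72% with median centring, 7.46% and 4.24% with quantile normalisation and 7.02% and 12.2% after normexp. The higher lists held 20 to 34 interferon, 15 to 21 macrophage, 13 to 21 p53 and 12 to 20 matrix genes.

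**Figure D4:**
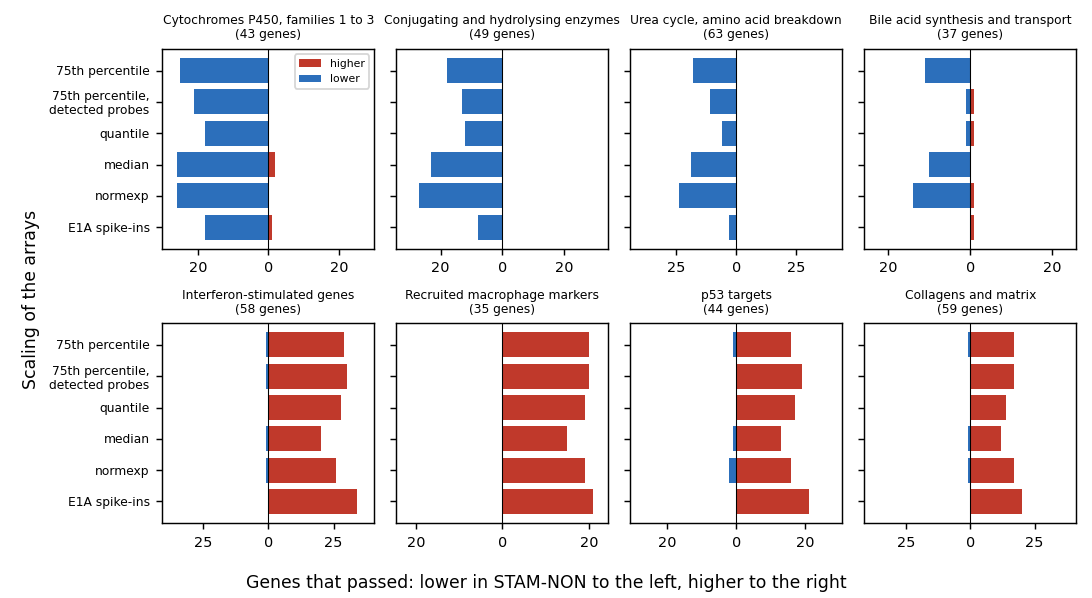
Genes that passed in 8 lists under 6 scalings. Each panel is a list with its number of tested genes, the horizontal axis counts genes lower (blue, to the left) and higher (red, to the right) in STAM-NON, and the vertical axis names the scaling. The range of the count axis differs between panels. The amino acid list goes from 18 lower at the 75th percentile to 3 with E1A spike-ins, and the P450 list from 25 to 18.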

How the data were processed

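Each array has 1 deposited file, written by Agilent Feature Extraction 11.5.1.1, and per the file headers its intensity values are linear, with background subtracted and detrended, and are not normalised between arrays. The study names an unpaired two-tailed t-test in general and no normalisation for the arrays. After removal of control spots and of outlier-flagged spots, the 59305 non-control positions of an array were averaged to 55681 probes. The log2 values analysed here were computed from the deposited intensity by taking log2 of gProcessedSignal and subtracting each array's own 75th percentile. Probes were tested when at least 0.5 of their spots were well above background on all 3 arrays of a group, and 12 with a missing value were left out. The test was that of limma 3.58.1 (R 4.3.3), two-sided, with lmFit and then eBayes fitted on all 9 arrays with 6 residual degrees of freedom, so that 3 arrays a group limit the precision. RefSeq accessions of the probes were matched, without versions, to a table of GRCm38.p6, which named 27656 probes with 20972 symbols, 13386 of them tested. The array was designed on mm9, and no array coordinates are given.

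Members and gene lists were chosen with earlier results of these data known, so lists are described by counts and medians with no test over a list. Named genes are, in each list, members past the threshold without overlap between groups (up to 6 rises and 6 falls), textbook members of the list whatever their result, and the 12 rises and 12 falls among genes with every probe past the threshold. A few genes outside that rule are named for their levels and were chosen after their values were seen. Where a group had no array well above background, the bound is the mean of the brighter group over a mean of floors in the dimmer one, a floor being the lowest signal detected on that array or the probe's signal if larger. Tests were tried on simulated data with 200 probes changed. Alternatives covered other scalings, normexp (offset 50, on median spot and background signals), filters, the arrays fitted, replicate block, slide row, leaving out each array, the methods' t-test and the choice of probe. A few list members are counted but not reported here by name.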

Additional observations from a re-analysis of the deposited data

Results flagged for a closer look

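ERCC spots are control probes for an RNA mix that the sources used here do not say was added, and they take no part in the comparison. Of 2772 such spots per array, 8.91% were well above background on STAM-NON replicate 1 and 15.5% on STAM-NON replicate 3, against 5.01% to 6.6% on the Normal arrays. On STAM-INS replicate 1 it was 18.1%. STAM-NON replicate 2 had 4.65%. The arrays with high shares were also those with the largest shares of other spots well above background (59.31%, 63.12% and 65.02%), and the part of this in the differences was not tested.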

How the results depend on the processing

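Probes past the threshold numbered 4220 (1655 higher, 2565 lower), and genes with every probe past it in 1 direction numbered 206. In that order (all, higher, lower, genes), the counts were 3144, 2080, 1064 and 178 with the 75th percentile over probes detected on all arrays, 3136, 1086, 2050 and 126 with median centring, 3195, 2737, 458 and 201 with E1A centring, 2964, 1539, 1425 and 136 with quantile normalisation, 4700, 1313, 3387 and 235 after normexp, and 2289, 1571, 718 and 123 with all E1A spots, a choice made after seeing the data. They were 250, 156, 94 and 8 without a filter on dim probes, 4152, 1318, 2834 and 209 with probes detected on all arrays, 2180, 1026, 1154 and 81 with only the 6 arrays compared, and 4999, 1805, 3194 and 271 with a trended, robust eBayes. Leaving out 1 array gave 874 to 6184 probes, 458 to 2262 higher and 416 to 3922 lower, and 31 to 395 genes. The lowest counts came without Normal replicate 3 and the highest without STAM-NON replicate 2. With slide row as a block, where STAM-INS arrays alone separate row from group, they were 15, 9, 6 and 0, and of the named genes Cdkn1a, Phlda3 and Espn still passed. Slide as a block was not run because no slide holds both groups.

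The replicate block gave 2016 probes, 991 higher and 1025 lower, and 77 genes. Same-numbered arrays correlated at -0.101, -0.072 and 0.045 in their deviations from the group means, so the numbers do not pair the samples. The methods' t-test gave 30 probes, 8 higher and 22 lower, and 0 genes after Benjamini-Hochberg, where 9395 probes had an unadjusted limma p under 0.05, 7534 probes (2354 and 5180) at p under 0.05, and 2165 (1507 and 658) at p under 0.1 with a 2-fold difference. A 2-fold threshold beside limma left 1641 probes, 1148 higher and 493 lower. Of 187 named genes that passed, 165 no longer did without the dim filter, 44 with E1A centring, 52 with quantile normalisation, and 97 to 127 without 1 array other than STAM-NON replicate 2, without which 3 were lost. Tpm1 (-0.65) turned to 0.92 at its probe with the smallest p and 0.29 as the mean over probes. The causes of these shifts were not tested. Probes not above background limit what can be said of dim genes.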

Other observations

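Immediate-early genes had 9 of 31 higher and 0 lower (29.0% against 7.87% of all genes), with a median of 0.57. Among them were Fos (at least 3.35-fold, well above background on no Normal array), Ier3 (1.53) and Dusp2 (1.58), while Egr1 (0.07) and Myc (0.12) did not pass. The immediate-early count was 3, 10 and 3 without STAM-NON replicates 1, 2 and 3 and 4, 1 and 0 without Normal replicates 1, 2 and 3. Acute-phase genes had 5 of 31 higher (16.1% against 7.87%), among them serum amyloid Saa2 (2.05), while Hp was at 0.10. The acute-phase count was 3, 5 and 1 without STAM-NON replicates 1, 2 and 3 and 1, 1 and 0 without Normal replicates 1, 2 and 3. Of 31 Wnt and beta-catenin genes 6 were lower (19.4% against 8.93% of all genes) and 1 higher. The lower ones included Lect2 (-0.97), Apc (-0.74) and Notum (-0.64). Glul, the pericentral glutamine synthetase, was at -0.46 with overlapping arrays. Of 29 genes of antigen presentation 4 were higher (13.8% against 7.87%), led by H2-Q1 (1.56) and Cd86 (1.46).

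Hepcidin (Hamp), the hormone that limits iron uptake, read 5.46, 4.62 and -2.54 on STAM-NON replicates 1, 2 and 3 and 7.89, 7.44 and 6.26 on the Normal arrays. The groups did not overlap, replicate 3 was far below the other two of its group, and the difference of -4.68 did not pass (SE 2.72, limma adjusted p = 0.245). Cela1, an elastase gene on the pancreas list, read 0.50, -1.84 and -1.17 against -3.44, -3.46 and -3.51 and was higher by 2.63 (limma adjusted p = 0.018), whereas Ctrb1 of the same list was lower (-0.78). Metallothionein and zinc genes gave 0 calls in 13 by limma.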
